A study of Mus musculus with 18 samples.

Results

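The 9 genes described here encode the enzymes that build pyrimidine nucleotides from simple precursors: Cad, Dhodh, Umps, Ctps1, Ctps2, Cmpk1, Cmpk2, Nme1 and Nme2. They were chosen by name, as the enzymes of the pathway from glutamine to UTP and CTP, and they are 9 of the 55487 genes in the count table. Total RNA was measured in mouse embryonic fibroblasts (MEFs), which are connective-tissue cells taken from embryos. Cells were kept for 24 h in serum-containing growth medium with glutamine and antibiotics, to which 0 µM (the vehicle control), 10 µM or 30 µM uracil had been added. Each dose had 6 libraries, which the labels number 1 to 6, so every number holds 1 library of each dose. The labels give no strain, genotype or passage of the MEFs. The study's methods call the libraries of a dose biological replicates, but neither source says whether the numbers stand for separate embryos or cultures, so the p-values below measure the spread between these libraries, part of which may be technical. The comparison asked which transcripts differ in MEFs between uracil doses.

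De novo pyrimidine synthesis joins glutamine, bicarbonate and aspartate into a ring, which CAD, DHODH and UMPS turn into UMP. Kinases then raise UMP to UTP, and CTP synthase aminates UTP to CTP, so the pathway supplies RNA, the UDP-sugars and the CDP-lipids, and after reduction DNA. UTP inhibits the first step of CAD, and cells can also make UMP from salvaged uridine, to which uridine phosphorylase can convert uracil. Growing fibroblasts use both routes.

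Nme1 and Nme2, both nucleoside diphosphate kinases that make UTP and CTP, lie next to each other and are close in sequence, which bears on how well short reads tell them apart. Their coding sequences, cut from GRCm39 by the GENCODE M39 annotation, are shown over bases 1 to 300 in lower case with the positions at which they differ in capitals.
Nme1: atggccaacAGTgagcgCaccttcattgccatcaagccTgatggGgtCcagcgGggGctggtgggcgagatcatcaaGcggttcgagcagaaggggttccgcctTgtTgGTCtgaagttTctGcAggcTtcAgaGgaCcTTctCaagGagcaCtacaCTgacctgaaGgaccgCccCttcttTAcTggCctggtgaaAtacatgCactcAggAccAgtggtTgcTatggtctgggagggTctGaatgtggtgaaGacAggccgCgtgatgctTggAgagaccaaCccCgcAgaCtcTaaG
Nme2: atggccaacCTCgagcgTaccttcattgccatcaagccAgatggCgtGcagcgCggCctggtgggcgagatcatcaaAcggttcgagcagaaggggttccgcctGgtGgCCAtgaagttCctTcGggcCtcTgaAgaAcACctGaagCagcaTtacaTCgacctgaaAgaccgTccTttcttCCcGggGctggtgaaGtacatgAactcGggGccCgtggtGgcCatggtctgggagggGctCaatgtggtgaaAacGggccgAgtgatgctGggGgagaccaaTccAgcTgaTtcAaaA
The whole coding sequence of each is 459 bases long and they are identical at 367 positions (80% identity). The longest identical run is 29 bases, and over any window of 75 bases, the length of 1 read, they differ at no fewer than 6 positions. The other isozyme pairs are further apart, with 69.3% identity between Ctps1 and Ctps2 and 31.1% between Cmpk1 and Cmpk2 in the coding sequence.

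RefSeq promoter entries on GRCm38.p6 were found for 8 of the 9 genes, in 13 entries. The 250 bases before the start site were searched on both strands for the E-box CACGTG, the GC box GGGCGG, the CCAAT box CCAAT and the interferon-type element (GAAA, any 2 bases, GAAA), each counted on its own with overlaps between motifs allowed. The windows of Cad, Nme1 and Nme2 are given, because Cad and Nme2 had the smallest adjusted p for replicate number over the 15 libraries described below and Nme1 is the neighbour of Nme2, with the matches in capitals.
Cad, chr5:31054530-31054779, plus strand: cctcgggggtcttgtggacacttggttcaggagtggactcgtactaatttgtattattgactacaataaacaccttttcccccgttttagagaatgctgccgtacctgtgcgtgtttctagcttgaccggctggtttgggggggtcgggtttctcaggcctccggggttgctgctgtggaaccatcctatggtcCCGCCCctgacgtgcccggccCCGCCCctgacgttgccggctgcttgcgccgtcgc
Nme1, chr11:93968026-93968275, minus strand: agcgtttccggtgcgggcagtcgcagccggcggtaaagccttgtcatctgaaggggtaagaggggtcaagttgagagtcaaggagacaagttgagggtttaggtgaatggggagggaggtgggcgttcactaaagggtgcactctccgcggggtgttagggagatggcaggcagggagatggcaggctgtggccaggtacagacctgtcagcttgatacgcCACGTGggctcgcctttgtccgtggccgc
Nme2, chr11:93955784-93956033, minus strand: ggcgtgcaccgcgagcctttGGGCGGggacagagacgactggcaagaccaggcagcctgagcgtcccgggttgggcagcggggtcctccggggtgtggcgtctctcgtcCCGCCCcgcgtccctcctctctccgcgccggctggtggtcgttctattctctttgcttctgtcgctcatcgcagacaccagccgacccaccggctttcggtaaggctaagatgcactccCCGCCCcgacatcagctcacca
Cad had 2 GC boxes, and each of the 2 entries of Nme1 had 1 E-box. Nme2 had 3 GC boxes in the entry shown and no match in its other entry. Among 32817 mouse promoters, 32.7% held a GC box, 6.02% an E-box, 33.8% a CCAAT box and 2.97% the interferon-type element. Umps had 1 GC box, Cmpk1 had 1 GC box and 2 interferon-type elements, Ctps1 had 1 GC box in 1 of 2 entries, Ctps2 had 1 CCAAT box in 1 of 3 entries, and Cmpk2 had no match. These matches describe the letters of the windows.

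On GRCm39, Cad (ENSMUSG00000013629) lies on the plus strand of chromosome 5 from 31212111 to 31236418 and overlaps no other annotated gene. Dhodh (ENSMUSG00000031730), at chromosome 8, 110317492 to 110335347, minus strand, and Cmpk1 (ENSMUSG00000028719), at chromosome 4, 114802024 to 114844454, minus strand, also overlap none. Umps (ENSMUSG00000022814), at chromosome 16, 33774077 to 33787429, minus strand, meets the non-coding Gm15829 on the other strand at its start. Ctps1 (ENSMUSG00000028633), at chromosome 4, 120395395 to 120471131, minus strand, contains or meets 2 non-coding genes of the other strand, Gm68461 and Gm12860. Ctps2 (ENSMUSG00000031360), at chromosome X, 161684145 to 161820217, plus strand, holds S100g on the other strand. Cmpk2 (ENSMUSG00000020638), at chromosome 12, 26519203 to 26529836, plus strand, shares its first bases with Gm60133 on the other strand. The strand setting of the counting is not given in the sources used here, so reads of these partners may be mixed.

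Nme1 (ENSMUSG00000037601) runs from 93847803 to 93887377 and Nme2 (ENSMUSG00000020857) from 93840587 to 93847300, both on the minus strand of chromosome 11. A read-through gene, Nme1nme2 (ENSMUSG00000091228), runs across both on the same strand and shares 341 of the 459 coding bases of Nme1 (74.3%) and 459 of 459 of Nme2 (100%). It received 0 to 16 counts per library. Pairs that fit a gene and the read-through may have been set aside as ambiguous, so the levels of Nme1 and Nme2 are uncertain. Spag9 and the non-coding Gm35198 also overlap Nme1, on the other strand.

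Gene counts per library ranged from 3.96 M to 20.8 M. The 3 with the most unaligned read pairs were control replicate 1, 30 µM replicate 6 and 10 µM replicate 6 (5.24% to 54.2%, against 1.72% to 3.59% in the other 15), and several of the 9 genes stood apart in them. In the study's own analysis a vehicle library and a library of the higher uracil dose were set aside because they held human RNA. The labels do not identify them, so the main comparisons keep every library and results are also given over the other 15. Control replicate 1 (54.2% unaligned) and 30 µM replicate 6 (37.9%) had the most unaligned pairs of these doses, and values of these libraries in the comparisons over 18 may be affected. The cells carried fibroblast transcripts, with 10 of 10 fibroblast markers at a mean of at least 1 CPM (counts scaled to a common library size by the TMM method) at every dose. The summed level of the 10 was 25670 to 57310 CPM per library (25670 to 29930 CPM in the 15). The 7 macrophage and leukocyte markers summed to 2.46 to 7.33 CPM, and Ptprc was at 0 to 0.269 CPM.

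Compared per length of exon in control libraries, Nme2 stood highest with 48.3 ± 11.4 CPM per kb, followed by Cad with 28.5 ± 2.23 (SD, n = 6). Ctps1 with 22.4 ± 1.40 and Nme1 with 22.4 ± 1.00 CPM per kb could not be ranked. Umps (13.2 ± 1.71) and Cmpk1 (10.9 ± 1.90) came next, with ranges that overlapped, and below them were Ctps2 (4.31 ± 0.486) and Dhodh (2.71 ± 0.223 CPM per kb). Cmpk2, the mitochondrial UMP/CMP kinase, was at 0.0416 ± 0.0442 CPM per kb. The order depended in part on the length used: per kb of the longest transcript, Ctps1 (42.4 CPM per kb) and Nme1 (38.6) stood above Cad (32.3), and Cmpk1 (21.1) above Umps (17.8). Dhodh, which oxidises dihydroorotate on the inner mitochondrial membrane, was the lowest of the 8 genes other than Cmpk2 on both lengths.

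**Figure D1:**
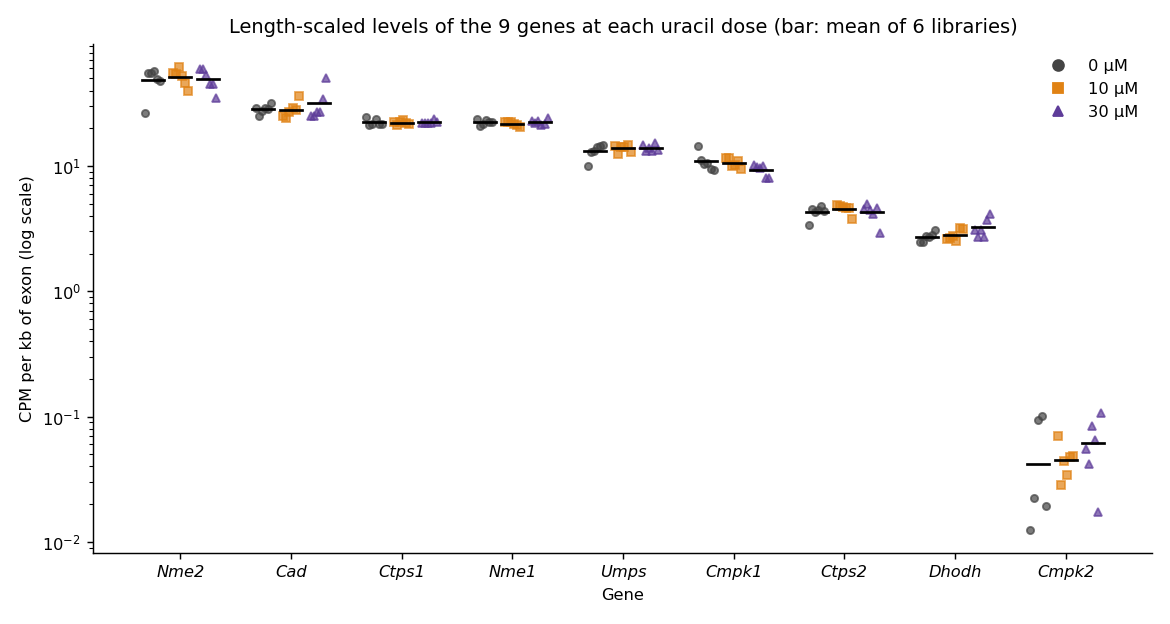
The plot shows CPM per kb of exon (log axis) for each of the 9 genes, with a point for each library, coloured by uracil dose, and a bar at the mean of 6 libraries; the Cmpk2 library with 0 counts is not drawn. From 0 µM to 30 µM the means of 8 genes stay within a narrow band, between 2.71 and 3.24 for Dhodh and between 48.3 and 51.6 for Nme2, whereas Cmpk2 lies near 0.05.

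No gene of the pathway passed the test at either dose of uracil. By edgeR's quasi-likelihood models 0 of the 8 genes with enough counts were called (adjusted p under 0.05) between 10 µM and control, between 30 µM and control, between the 2 uracil doses, for any difference among the 3 doses or for a slope on dose. The same tests called 0 of all 13865 genes tested (0% in each), with 96, 595, 323, 212 and 757 genes at an unadjusted p under 0.05 in that order. DESeq2 and limma voom also called 0 genes in each of these tests. The median log2 fold change of the 8 genes was 0.021 at 10 µM and 0.019 at 30 µM, beside 0.0059 and 0.012 over all genes tested. Cmpk2, the ninth gene, fell below the filter on low counts. In each of the 9 genes the range of the 6 libraries at 10 µM and at 30 µM overlapped the control range. These ranges include the 3 libraries with the most unaligned pairs, and ranges can overlap when means differ. The share of all genes with such overlap is not given here. RNA was taken from whole dishes, so fewer cells that carry a transcript and less of it per cell cannot be told apart.

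Cad encodes the protein that carries the first steps, carbamoyl phosphate synthetase, aspartate transcarbamylase and dihydroorotase. It had 218 to 278 CPM in control (median 253), 212 to 317 CPM at 10 µM (median 241) and 220 to 446 CPM at 30 µM (median 237). The highest library at each of the 2 uracil doses was replicate 6, and the other 10 uracil libraries lay between 212 and 302 CPM. The log2 fold change of CPM at 10 µM was −0.015 with an SE of 0.15 (95% interval −0.33 to 0.30), and at 30 µM it was 0.15 with the same SE (−0.16 to 0.46). In the model with dose alone the difference at 30 µM was −0.040 (−0.22 to 0.14) over the 15 libraries, and −0.039 without 30 µM replicate 6 alone.

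Dhodh had 16.97 to 21.1 CPM in control (median 18.8), 17.5 to 22.0 CPM at 10 µM (median 18.9) and 18.6 to 28.8 CPM at 30 µM (median 21.2). Number by number, 30 µM exceeded control in 5 of 6 cases, and the highest values were those of 30 µM replicates 6 (28.8 CPM) and 5 (25.6 CPM). Its log2 fold change was 0.055 ± 0.10 (−0.16 to 0.27) at 10 µM and 0.25 ± 0.10 (0.033 to 0.46) at 30 µM, a 1.19-fold difference. The unadjusted p at 30 µM was 0.0259, and the adjusted p by edgeR's test was 0.931. Over the 15 libraries the difference at 30 µM was 0.14 (−0.045 to 0.33, adjusted p 0.944 by the same test), and without 30 µM replicate 6 it was 0.17.

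Umps encodes the enzyme that joins orotate to ribose phosphate and removes its carboxyl group to give UMP. It had 62.0 to 91.0 CPM in control (median 83.4), 77.0 to 90.2 CPM at 10 µM (median 87.1) and 81.3 to 93.7 CPM at 30 µM (median 84.1). Control replicate 1 was the low library, and without the 3 libraries the 3 means were 85.1, 85.9 and 86.4 CPM. The log2 fold change was 0.059 ± 0.077 (−0.10 to 0.22) at 10 µM and 0.072 ± 0.077 (−0.089 to 0.23) at 30 µM.

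Cmpk1, the cytosolic kinase that takes UMP and CMP to their diphosphates, had 65.1 to 102 CPM in control (median 73.6), 66.9 to 81.7 CPM at 10 µM (median 74.2) and 56.9 to 71.9 CPM at 30 µM (median 68.4). Number by number, 30 µM lay below control in 6 of 6 cases, and in 4 of the 4 that had both libraries among the 15. The log2 fold change was −0.031 ± 0.098 (−0.24 to 0.17) at 10 µM and −0.22 ± 0.098 (−0.43 to −0.016) at 30 µM, 0.858 of control. The unadjusted p at 30 µM was 0.0358, and the adjusted p by edgeR's test was 0.931. Control replicate 1 was the highest of the 18 libraries. Without it the difference at 30 µM was −0.13, and over the 15 libraries −0.10 (−0.25 to 0.041). Between 30 µM and 10 µM the difference over the 15 libraries was −0.19 (−0.33 to −0.045). There the unadjusted p by edgeR was 0.0128, where 1.88% of all genes had one under 0.05, and the adjusted p was 0.9999. Dhodh and Cmpk1 were the 2 of 8 genes with an unadjusted p under 0.05 at 30 µM against control, where 4.29% of all genes tested had one. Over the 15 libraries 0 of the 8 did in the same comparison and the model with dose alone (4.33% of all genes). The same 2 genes had one for the slope on dose (5.46% of all genes), Dhodh with 0.0085 ± 0.0032 and Cmpk1 with −0.0077 ± 0.0032 log2 units per µM (SE).

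Cmpk2, which interferon induces, was counted 0 to 6 times per library. Its level was 0 to 0.440 CPM in control (median 0.0903), 0.123 to 0.299 CPM at 10 µM (median 0.198) and 0.0747 to 0.464 CPM at 30 µM (median 0.260). A floor of 3 counts corresponded to 0.145 to 0.808 CPM, depending on the library, so most of these values lie near the limit of detection. An exact permutation test of the mean CPM, two-sided over every relabelling of 6 against 6 libraries, gave p = 0.849 at 10 µM and p = 0.372 at 30 µM. A difference in Cmpk2 was not detectable at these counts.

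Nme1 was among the steadiest of the genes, at 115 to 130 CPM in control (median 123), 113 to 124 CPM at 10 µM (median 120) and 116 to 132 CPM at 30 µM (median 123). Its log2 fold change was −0.037 ± 0.048 (−0.14 to 0.064) at 10 µM and 0.0026 ± 0.048 (−0.099 to 0.10) at 30 µM. Nme2 was more spread, at 76.2 to 165 CPM in control (median 151), 115 to 179 CPM at 10 µM (median 155) and 101 to 174 CPM at 30 µM (median 143). The lowest library of each dose was the one with the most unaligned pairs in that dose. Its log2 fold change was 0.087 ± 0.16 (−0.26 to 0.43) at 10 µM and 0.034 ± 0.16 (−0.31 to 0.38) at 30 µM, and over the 15 libraries 0.028 (−0.16 to 0.22) and −0.010 (−0.20 to 0.18).

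CTP synthase closes the pathway by moving an amino group from glutamine to UTP. Ctps1, the more abundant isozyme, had 206 to 240 CPM in control (median 211), 208 to 224 CPM at 10 µM (median 217) and 213 to 230 CPM at 30 µM (median 215), with a coefficient of variation of 4.11% over the 18 libraries. Its log2 fold change was −0.013 ± 0.049 (−0.12 to 0.089) at 10 µM and −0.0018 ± 0.049 (−0.10 to 0.10) at 30 µM, so the interval at 30 µM ran from 0.930 to 1.07 of control. Ctps2 had 36.4 to 51.8 CPM in control (median 47.2), 40.5 to 51.9 CPM at 10 µM (median 50.3) and 31.4 to 53.3 CPM at 30 µM (median 48.1). Here too the lowest library of each dose was the one with the most unaligned pairs. The log2 fold change of Ctps2 was 0.079 ± 0.10 (−0.14 to 0.30) at 10 µM and −0.014 ± 0.11 (−0.23 to 0.21) at 30 µM.

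**Figure D2:**
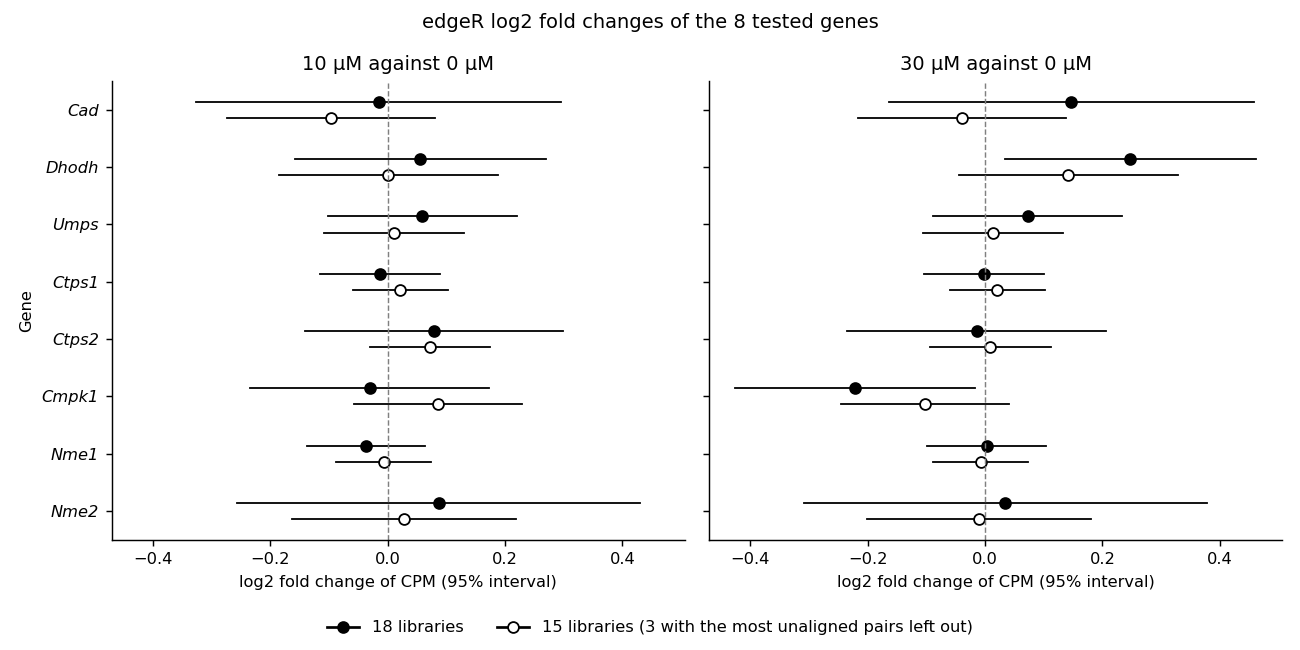
The plot gives the log2 fold change of CPM against 0 µM with its 95% interval from edgeR's model with dose alone for the 8 tested genes, at 10 µM on the left and 30 µM on the right, over all 18 libraries (filled) and over 15 (open). Over 18 libraries the intervals of Dhodh (0.033 to 0.46) and Cmpk1 (−0.43 to −0.016) at 30 µM lie clear of 0, and over 15 libraries every interval includes 0.

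The ratio of 2 isozymes within a library depends on how libraries are scaled only through a small count added to each gene. It was tested by dose. Ctps1 exceeded Ctps2 by 2.24 ± 0.249 on the log2 scale in control, 2.14 ± 0.123 at 10 µM and 2.26 ± 0.267 at 30 µM (SD, n = 6). Nme1 against Nme2 was −0.15 ± 0.468 in control, −0.31 ± 0.176 at 10 µM and −0.21 ± 0.327 at 30 µM. Cmpk1 exceeded Cmpk2 by 8.10 ± 0.993, 7.81 ± 0.269 and 7.40 ± 0.525, values that rest on the few counts of Cmpk2 and on the added count. Exact permutation tests of 6 against 6 libraries, two-sided, gave p of 0.162 to 0.818 in the 6 tests (0.818 after Benjamini-Hochberg adjustment over the 6), where the smallest possible p was 0.00216. The ratios of 2 pairs were highest in the 3 libraries with the most unaligned pairs. Nme1/Nme2 was 1.71 in control replicate 1 (54.2% unaligned), 1.30 in 30 µM replicate 6 (37.9%) and 0.977 in 10 µM replicate 6 (5.24%), against 0.693 to 0.907 in the other 15 libraries. Ctps1/Ctps2 was 6.59, 6.87 and 5.15 in the same libraries and 4.02 to 4.78 in the other 15. Over the 15 libraries log2 Nme1/Nme2 averaged −0.43, −0.46, −0.42, −0.30, −0.18 and −0.16 for numbers 1 to 6, the last from 1 library. The part that unaligned pairs or replicate number play in these ratios was not tested.

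**Figure D3:**
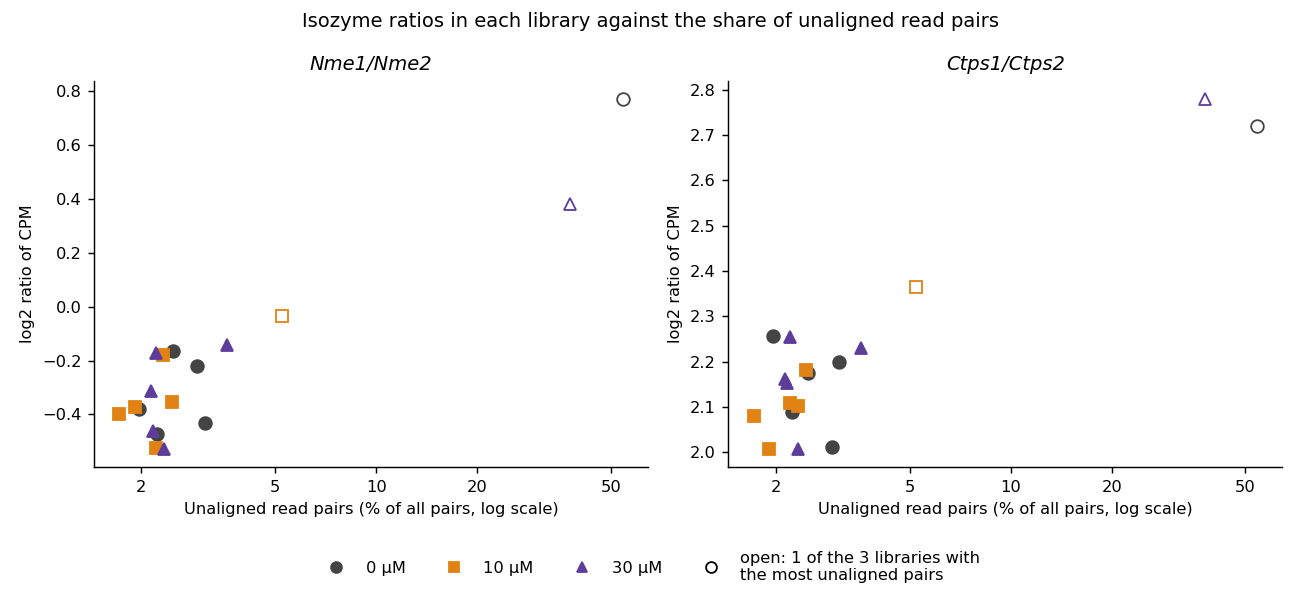
The plot sets the log2 ratio of CPM of Nme1 to Nme2 (left) and of Ctps1 to Ctps2 (right) against the percentage of unaligned read pairs (log axis), with a point for each of 18 libraries, coloured by uracil dose and open in the 3 with the most unaligned pairs. In both panels the 3 open points lie above the other 15, which run from −0.53 to −0.14 for Nme1/Nme2 and from 2.01 to 2.26 for Ctps1/Ctps2.

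The test of replicate number, unlike the dose tests, was passed by some of the pathway genes, and which ones depended on the libraries kept. In an additive model with dose, edgeR's F test of number called 2 of the 8 genes, Cad (adjusted p 0.0169) and Dhodh (0.0413), where 12.6% of all genes tested were called. The mean of Cad was 233, 217, 238, 249, 266 and 347 CPM for numbers 1 to 6 (3 libraries each), lowest in number 2 and highest in number 6. Over the 15 libraries the same means were 221, 217, 238, 249, 266 and 278 CPM, the last from a single library. Dhodh averaged 18.8, 18.2, 19.9, 18.3, 22.3 and 23.8 CPM, so numbers 5 and 6 stood above the others. Cad was called without each of the 18 libraries in turn, but Dhodh in 4 of these 18 fits (without control replicates 1, 4 or 6 or 10 µM replicate 6). Other genes were called in 3 of the fits: Nme2 without control replicate 1 (adjusted p 0.00498 by edgeR), Ctps2 without control replicate 6 (0.0454) and Cmpk1 without 10 µM replicate 5 (0.0359). Of all genes tested, these 3 fits called 3498 of 13977, 3271 of 14019 and 1366 of 13932, in that order. The 18 fits called between 1272 and 3498 genes.

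Without the 3 libraries the test of number called 4 of 8 genes, where 20.8% of all genes were called: Cad (adjusted p 0.00229 by edgeR), Nme2 (0.0305), Umps (0.0383) and Dhodh (0.0427). Nme2 then averaged 168, 164, 165, 149, 136 and 138 CPM for numbers 1 to 6, high where Cad was low. Umps averaged 88.9, 79.3, 84.5, 84.8, 90.9 and 91.0 CPM, with its lowest value in number 2, as for Cad. Of 28 alternative fits Umps was called in 1, this one, in which number 6 holds 1 library. Cmpk1, with 76.8, 76.4, 70.5, 71.8, 66.9 and 65.1 CPM, did not pass with all libraries (adjusted p 0.0606) or without the 3 (0.107). Ctps1, Ctps2 and Nme1 were not called in either fit. The 8 markers of epithelial and mesothelial cells, with Msln at 16.7 to 113 CPM per library, summed to 103 to 111 CPM in numbers 1 to 3 and to 195 to 242 CPM in numbers 4 to 6. Of the other markers, Krt19 was at 53.2 to 90.5 CPM, Upk3b at 4.36 to 38.0 CPM, Wt1 at 4.31 to 14.7 CPM and Krt8 at 1.08 to 14.6 CPM per library. Lower were Cdh1 (0.509 to 3.37 CPM), Krt18 (0 to 3.59 CPM) and Epcam (0 to 1.69 CPM). The summed level of 15 proliferation genes was 2318 to 2524 CPM across numbers, but its members differed. Over the 15 libraries Mcm2 (adjusted p 0.00255 by edgeR), Mcm7 (0.0170), Mcm6 (0.0352) and Mcm3 (0.0486) were called, and the other members were not. With all libraries Mcm2 averaged 128 CPM in number 1 and 163 CPM in number 6, whereas Ccna2 averaged 152 and 126 CPM. Whether epithelial or mesothelial cells were present, and any part they played in the differences between numbers, was not tested.

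**Figure D4:**
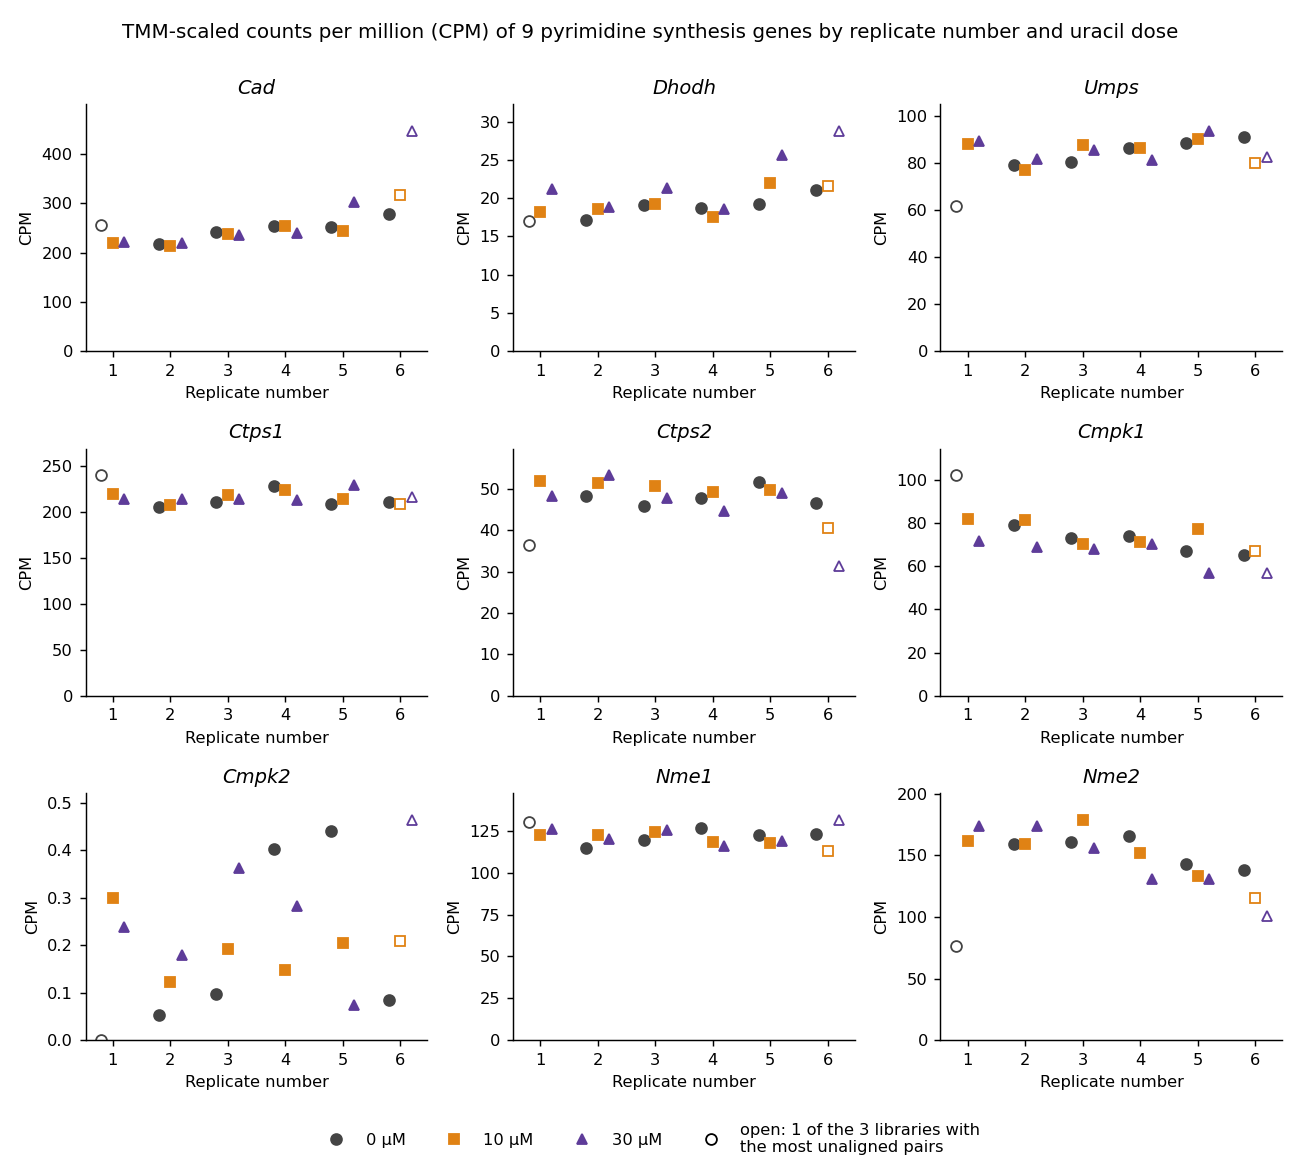
Each panel plots the TMM-scaled CPM of a gene against replicate number, with a point for each dose and open points for the 3 libraries with the most unaligned pairs; the axes start at 0. Cad reaches 446 CPM and Dhodh 28.8 CPM in 30 µM replicate 6, Nme2 falls to 76.2 CPM in control replicate 1, and Ctps1 and Nme1 stay level.

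The genes whose profile over the 15 libraries was most like that of each enzyme were found among 10617 genes with a mean of at least 5 CPM, by the root mean square difference of standardised log2 CPM. These are a description, since libraries share number and depth, and the median difference over all candidates was 1.39 to 1.45. For Cad they were Macroh2a1 (0.233), a histone variant, and Pfas (0.289), an enzyme of purine synthesis. For Dhodh they were Tcof1 (0.432) and Letm1 (0.501), and for Umps Psmb5 (0.412) and Rrp15 (0.444). Ctps1 was nearest to Hras (0.255) and the ribosomal protein gene Rps6 (0.309), Ctps2 to Gm10080 (0.667) and Ska1 (0.668), and Cmpk1 to Hmgn3 (0.410) and Eif5a2 (0.414). Nme1 was nearest to Emc6 (0.611) and Ube2d-ps (0.674), and Nme2 to Rpl34-ps1 (0.391). Among the 8 enzymes themselves the nearest pair was Dhodh and Umps (0.814), then Cad and Umps (0.818) and Cad and Dhodh (0.873), and the furthest was Cad and Cmpk1 (1.89). Ctps1, which acts at the end of the pathway, came next, with Umps (0.947) and with Cad (0.967).

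Other genes that feed, bypass or use the pathway did not pass the dose tests either. In 9 further lists, 0 genes were called by edgeR for any difference among the doses (0% of all genes tested). The median log2 fold change at 30 µM ran from −0.052 for 10 users of UTP and CTP to 0.081 for 13 genes of purine synthesis, beside 0.012 over all genes tested. The 14 genes of pyrimidine salvage and transport, which include uridine phosphorylase and the uridine kinases, had a median of 0.050. The 9 tested genes of pyrimidine breakdown had 0.048, the 12 of deoxypyrimidine supply −0.0018, and the 13 of precursor supply and signals to CAD −0.025. The 3 tested kinases of the Nme family outside the pathway, Nme4, Nme6 and Nme7, had 0.077, the 9 tested interferon-induced genes 0.061 and the 15 proliferation genes 0.014. The ends of this range depended on the 3 libraries. Over the 15 libraries the medians ran from −0.032 for precursor supply to 0.17 for 10 interferon-induced genes, beside −0.0035 over all genes, with 0.019 for the users of UTP and CTP and 0.018 for purine synthesis.

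Across replicate numbers, where 12.6% of all genes were called, each of these lists held 0 to 2 calls. Of the precursor list 1 of 13 was called, Mycn (adjusted p 0.0105 by edgeR), a Myc family transcription factor, at 6.78 to 6.94 CPM in numbers 1 to 3 and 11.1 to 12.03 CPM in numbers 4 to 6. In the same list Myc (0.0624) and Mtor (0.136) did not pass. Of deoxypyrimidine supply 1 of 12 was called, Shmt2 (adjusted p 8.81e-05 by edgeR), which makes one-carbon units in mitochondria and averaged 218 CPM in numbers 1 and 2 and 363 CPM in number 6, whereas Rrm2 (0.303) did not pass. Of the users of UTP and CTP 2 of 10 were called, Ugp2 (0.0116 by edgeR), which makes UDP-glucose, and Ugdh (0.0126), which oxidises it. The mean of Ugp2 was highest in number 1 (137 CPM) and lowest in number 6 (85.1 CPM), and Pcyt1a (0.22) did not pass. Of purine synthesis 1 of 13 was called, Pfas (0.0288 by edgeR), at 100 to 138 CPM, and Adss2 (0.052) and Gart (0.238) were not.

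Of the interferon-induced genes, Isg15 (adjusted p 0.0661 by edgeR) and Ifih1 (0.0947) did not pass. Of salvage 0 of 14 passed, with Cda (0.0638), Uprt (0.207) and Slc29a3 (0.222) lowest in p, and of breakdown 0 of 9, with Entpd6 (0.0853), Samhd1 (0.278) and Entpd5 (0.407). Of proliferation 0 of 15 passed, with Mcm2 (0.085), Ccna2 (0.127) and Mcm3 (0.134), and of the other Nme kinases 0 of 3, with Nme7 (0.19), Nme6 (0.78) and Nme4 (0.792). Without the 3 libraries, where 20.8% of all genes were called, Mycn, Shmt2, Ugp2, Ugdh and Pfas were still called by edgeR. Some named genes that had not passed were then called as well. They were Mcm2 (adjusted p 0.00255 by edgeR), Isg15 (0.0186), Adss2 (0.0263), Samhd1 (0.0290), Myc (0.0353), Gart (0.0365) and Mcm3 (0.0486).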

How the data were processed

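The table that the authors deposited holds raw counts, whole numbers of read pairs per mouse Ensembl gene and library, with no normalisation. Per the labels, RNA libraries were made with a stranded total RNA kit that depletes ribosomal RNA. The submitters' processing notes name FastQC, HISAT2, SAMtools 1.2 and HTSeq, and as build only GRCh38, a human one. The mouse build, annotation release and strand setting are not given in the sources used here. Of all pairs, 6.85% to 15.6% were in no gene, 0.504% to 1.64% ambiguous, 4.79% to 13.1% of low quality, 1.72% to 54.2% unaligned and 5.59% to 20.2% aligned to several places. These 5 closing entries stayed out of library sizes and tests. GENCODE M39 on GRCm39 named 51731 of 55487 genes; Ddx58 and Gm20390 of the lists had no match under these names.

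Each of the 18 libraries took its dose and number from its title. Tests ran in edgeR 4.0.16 under R 4.3.3 (filterByExpr, TMM, robust quasi-likelihood models on all 18 libraries with dose as the term, and with number added for the test of number). P-values were adjusted by Benjamini-Hochberg over the genes tested, threshold 0.05. CPM are TMM-scaled. Log2 ratios within libraries used a prior count of 2 and exact permutation in scipy 1.17.1. Alternatives were DESeq2 1.42.0, limma 3.58.1 voom, other scalings and filters, each library left out, the 2 or 3 libraries with the most unaligned pairs left out, and the replicate number as a block. The scripts were tested on simulated data. Pairs of replicates were checked for duplicates, and the lowest chi-square per gene over 45 pairs was 3.78. Intervals and floors cover counting error or the spread between libraries and no bias.

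The genes, lists, tests and alternatives were chosen with earlier results of these data known. The 9 enzymes are always named. Genes of other lists are named if they passed a dose test, and otherwise the 3 with the smallest p for replicate number at a mean of at least 1 CPM. For each enzyme the 2 most alike genes and any gene overlapping it are named. Some genes that this rule names are not reported here.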

Additional observations from a re-analysis of the deposited data

Results flagged for a closer look

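In groups of 6 libraries, the gap of the highest or lowest value to its nearest neighbour was set against the group's range, and ratios above Dixon's 95% critical value were noted. Of 36 groups (12 measures at 3 doses) 7 had such a value, where chance gives about 1 in 20 groups (1.8). Of the 7, 6 fell in the 3 libraries with the most unaligned pairs. In control replicate 1, Nme2 was at 76.2 CPM (the other control libraries 138 to 165), log2 Nme1/Nme2 at 0.77 (−0.47 to −0.16) and log2 Ctps1/Ctps2 at 2.72 (2.01 to 2.26). In 30 µM replicate 6, Cad was at 446 CPM (220 to 302 in the others of that dose) and log2 Ctps1/Ctps2 at 2.78 (2.01 to 2.25). In 10 µM replicate 6, Ctps2 was at 40.5 CPM (49.3 to 51.9). The remaining value lay outside those libraries: Ctps1 at 230 CPM in 30 µM replicate 5 (213 to 217). The part that unaligned pairs, depth or replicate number play was not tested.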

How the results depend on the processing

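Each alternative run called 0 of the tested enzymes in each dose test, and the cause of the changes given here was not tested. Cmpk2, with 0 to 6 counts per library, had no usable estimate. The intervals of the other enzymes against control, with dose alone, were narrower without the 3 libraries with the most unaligned pairs. For replicate number, 1 enzyme was called with library totals alone (beside 1578 of all 13865 genes tested), with no filter on low counts (1661 of 29386) or with no dose term (1891 of 13865). Without the 3 libraries 4 enzymes were called (2890 of 13888 genes), and with limma voom 5 (5959 of 13865). When each library was left out 1 to 3 enzymes were called, in fits that called 1272 to 3498 genes. Labels do not say that equal numbers pair the samples: 16 of 18 same-number pairs deviated together with a correlation over 0.1 (lowest −0.10), in 9 of the 18 the library of the lower dose correlated best with its own number, and with a replicate block 0 enzymes were called at any dose (lowest adjusted p 0.656 at 30 µM, for Dhodh and Cmpk1). With the replicate block over the 15 libraries Dhodh at 30 µM against control was 0.18 (95% interval 0.043 to 0.33, unadjusted p 0.0131 by edgeR). Cmpk1 was −0.16 (−0.27 to −0.045, 0.00857) and Cad 0.026. So 2 of 8 enzymes had an unadjusted p under 0.05, as did 4.35% of all genes, and none in this comparison with dose alone.

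Signs that turned were of differences that were not called. Without the 2 libraries with most unaligned pairs the log2 fold change at 10 µM was 0.062 for Cmpk1, 0.018 for Ctps1, −0.031 for Nme2 and −0.00088 for Umps, and at 30 µM −0.036 for Cad, 0.025 for Ctps1, 0.012 for Ctps2, −0.0038 for Nme1 and −0.0064 for Nme2. Without the 3 it was 0.086 for Cmpk1 and 0.021 for Ctps1 at 10 µM, and −0.040 for Cad, 0.021 for Ctps1, 0.0087 for Ctps2, −0.0074 for Nme1 and −0.010 for Nme2 at 30 µM. With the replicate block and without 2 it was 0.019 for Cad, 0.036 for Cmpk1, 0.016 for Ctps1, −0.077 for Nme2 and −0.012 for Umps at 10 µM, and 0.019 for Ctps1, −0.019 for Nme1 and −0.10 for Nme2 at 30 µM. With the block and without 3 it was 0.031 for Cmpk1, 0.020 for Ctps1 and −0.039 for Nme2 at 10 µM, and 0.020 for Ctps1, −0.0080 for Nme1 and −0.079 for Nme2 at 30 µM. With limma voom it was 0.051 for Cmpk1, 0.024 for Ctps1 and 0.0050 for Nme1 at 10 µM, and −0.069 for Cad, 0.016 for Ctps1 and 0.035 for Ctps2 at 30 µM. Ctps1 was 0.00084 at 10 µM with library totals alone, 0.0050 at 10 µM and 0.0094 at 30 µM with no filter, and 0.0060 at 30 µM with DESeq2. Nme1 at 30 µM was −0.00074 with at least 10 counts in every library and −0.023 with library totals.

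Leaving out each library gave −0.095 to 0.025 for Cad, −0.073 to 0.057 for Cmpk1, −0.029 to 0.013 for Ctps1, −0.036 to 0.15 for Nme2 and −0.0060 to 0.093 for Umps at 10 µM, and −0.039 to 0.21 for Cad, −0.021 to 0.023 for Ctps1, −0.071 to 0.065 for Ctps2, −0.017 to 0.024 for Nme1 and −0.089 to 0.11 for Nme2 at 30 µM. The log2 Nme1/Nme2 ratio differed from control by 0.023 at 10 µM and 0.011 at 30 µM without the 2 libraries, and by 0.011 at 30 µM without the 3; Cmpk1/Cmpk2 differed by 0.044 at 10 µM without the 3. Leaving out each library gave −0.081 to 0.12 for Ctps1/Ctps2 at 30 µM, and for Nme1/Nme2 −0.23 to 0.023 (10 µM) and −0.17 to 0.13 (30 µM).

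Per kb of the longest transcript, control levels were 32.3 (Cad), 4.45 (Dhodh), 17.8 (Umps), 42.4 (Ctps1), 5.42 (Ctps2), 21.1 (Cmpk1), 38.6 (Nme1) and 83.2 CPM (Nme2). Without the 3 libraries replicate number called 20.8% of all genes, 5 of 13 genes of purine synthesis (38.5%), 3 of 10 interferon-induced (30%), 4 of 15 proliferation (26.7%), 2 of 10 users of UTP and CTP (20%), 2 of 13 of precursor supply (15.4%), 1 of 9 of breakdown (11.1%), 1 of 12 of deoxypyrimidine supply (8.33%), 0 of 14 of salvage and 0 of 3 other Nme kinases.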
